A study of Sus scrofa with 9 samples.

Results

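The enzymes of xenobiotic and aldehyde metabolism on the porcine array were followed in the mammary gland of the sow across late pregnancy, the day after farrowing and established lactation. A probe set belonged to the group if the platform annotation gave it 1 gene symbol that begins with CYP and a digit or with UGT, GST, ALDH, AKR, CES, PON, EPHX, SULT or FMO, or if that symbol is NQO1. CYP51, whose synonym in the RefSeq gene table is CYP51A1, was left out as an enzyme of cholesterol synthesis. This gave 91 of the 24123 probe sets on the array. They stand for 62 of the 6765 genes that the annotation names by a single symbol. Of these, 44 probe sets of 38 genes passed a filter on dim signals and were tested, and 47 probe sets did not pass it, which left 24 genes with no tested probe set. The single measured UGT gene, UGT2B31, was among the untested ones, so glucuronidation, which the UGT enzymes carry out, was not assessed at the level of its transferases.

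These enzymes are best known from the liver, where they make fat-soluble compounds easier to excrete. Cytochromes P450 (CYP) and flavin monooxygenases (FMO) insert oxygen. Carboxylesterases (CES), paraoxonases (PON) and epoxide hydrolases (EPHX) split esters, lactones and epoxides. Aldehyde dehydrogenases (ALDH) and aldo-keto reductases (AKR) oxidise or reduce the aldehydes and ketones that arise, and NQO1 reduces quinones. Glutathione transferases (GST), sulfotransferases (SULT) and UGT enzymes then attach a polar group. Many family members also serve normal metabolism, such as the making of retinoic acid, steroids, proline or oxysterols, and the mammary gland is both a user of such products and a route by which foreign compounds can enter milk.

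The study biopsied the mammary gland of 6 Large White sows, kept on a standard corn and soybean meal diet, at 3 stages: 17 days before farrowing (day -17, within 2 days), day 1 after farrowing and day 17 of lactation (within 2 days). Equal volumes of RNA from 2 sows made up a pool, and the 3 pools of each day were hybridised to one-colour Affymetrix porcine arrays, 9 in all. The same sows were biopsied on all 3 days, but no label says whether pool 1, 2 or 3 holds the same sows on each day. Values are MAS5 signals, linear brightness units scaled to a common mean on each array.

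The number of arrays limits the precision. The p-values set a difference between days against the spread between pools, and the spread between single sows was not measured. Over all endogenous probe sets, any pool of a day correlated with another of that day at a Spearman's rho of 0.954 to 0.976, as a description. The tissue label was borne out by its markers: all 7 milk protein genes passed the filter, with a summed signal of 60484 to 85934 on day -17, 216822 to 304309 on day 1 and 458643 to 468487 on day 17. The filter level, the 40th percentile of an array's endogenous signals, lay between 82.1 and 94.2. A signal under it is called dim here, and where all 3 pools of 1 day were dim, the difference from a brighter day is also given as a bound (at least so many fold), with the dim pools set to this level. A fitted log2 difference from a dim day does not measure the size of a change. Log2 differences carry ± the standard error that limma estimated (n = 3 pools on a day), p-values are adjusted over all 15519 tested probe sets, and pool values stand in the order of pools 1, 2 and 3. In a biopsy, fewer cells of a type and less RNA per cell cannot be told apart.

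On day 1 against day -17, several enzymes with a high late-pregnancy signal were lower: CYP2A19 and PON3 were at least 9.32-fold and 5.18-fold lower, CES1 fell by 3.21 on the log2 scale, and PON2, EPHX1 and GSTO1 fell by 1.46, 1.54 and 0.88. Rises were smaller for most genes, with ALDH18A1, CYP19A3, ALDH2 and GSTZ1 between 0.47 and 0.90, and GSTA1 at 2.35 from a dim signal. Of the 38 tested genes 7 rose, 11 fell and 20 did not pass, with a median log2 difference of -0.40 beside -0.07 over all tested probe sets. By probe set, 18 of 44 were called, 7 higher and 11 lower. Over all tested probe sets 24.1% were called, 12% higher and 12.1% lower. ALDH1L1, CYP2A19, CYP3A29 and PON3 passed the filter only through day -17, and GSTA1 only through the later days, so these counts describe the tested members and do not show that they differ from other genes.

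On day 17 against day 1, ALDH1A1, ALDH2, EPHX1, CYP27A1 and GSTZ1 rose, and CES1 and GSTO1 fell. ALDH1A1 rose by 2.34 ± 0.18 on the log2 scale. CES1 was dim on day 17, so its fall is at least 1.03-fold, and GSTO1 fell by 1.24 on the log2 scale. Of the 38 genes 5 rose, 2 fell and 31 did not pass, with a median of 0.03 beside -0.01 over all tested probe sets. By probe set, 8 of 44 were called, 6 higher and 2 lower. Over all tested probe sets 13.6% were called, 7.02% higher and 6.61% lower.

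On day 17 against day -17, 8 of the 38 genes were higher, 13 were lower and 17 did not pass, with a median of -0.36 beside -0.08 over all tested probe sets. CES1, CYP2A19, PON3, AKR1CL1, ALDH1L1 and CYP3A46, all dim on day 17, were at least 3.01-fold to 9.59-fold lower. CES3, ALDH2, ALDH1A1 and CYP27A1 rose by 1.17 to 1.87 on the log2 scale. The largest of these, CES3, was dim in most day -17 pools, and none of these calls held under E. coli scaling. By probe set, 23 of 44 were called, 10 higher and 13 lower. Over all tested probe sets 46.5% were called, 21.7% higher and 24.8% lower, so the share among the members lay near that background. In at least 1 comparison 23 of the 38 genes were called, where 51.9% of all tested probe sets were. The 3 comparisons share days with each other and are not independent.

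**Figure D1:**
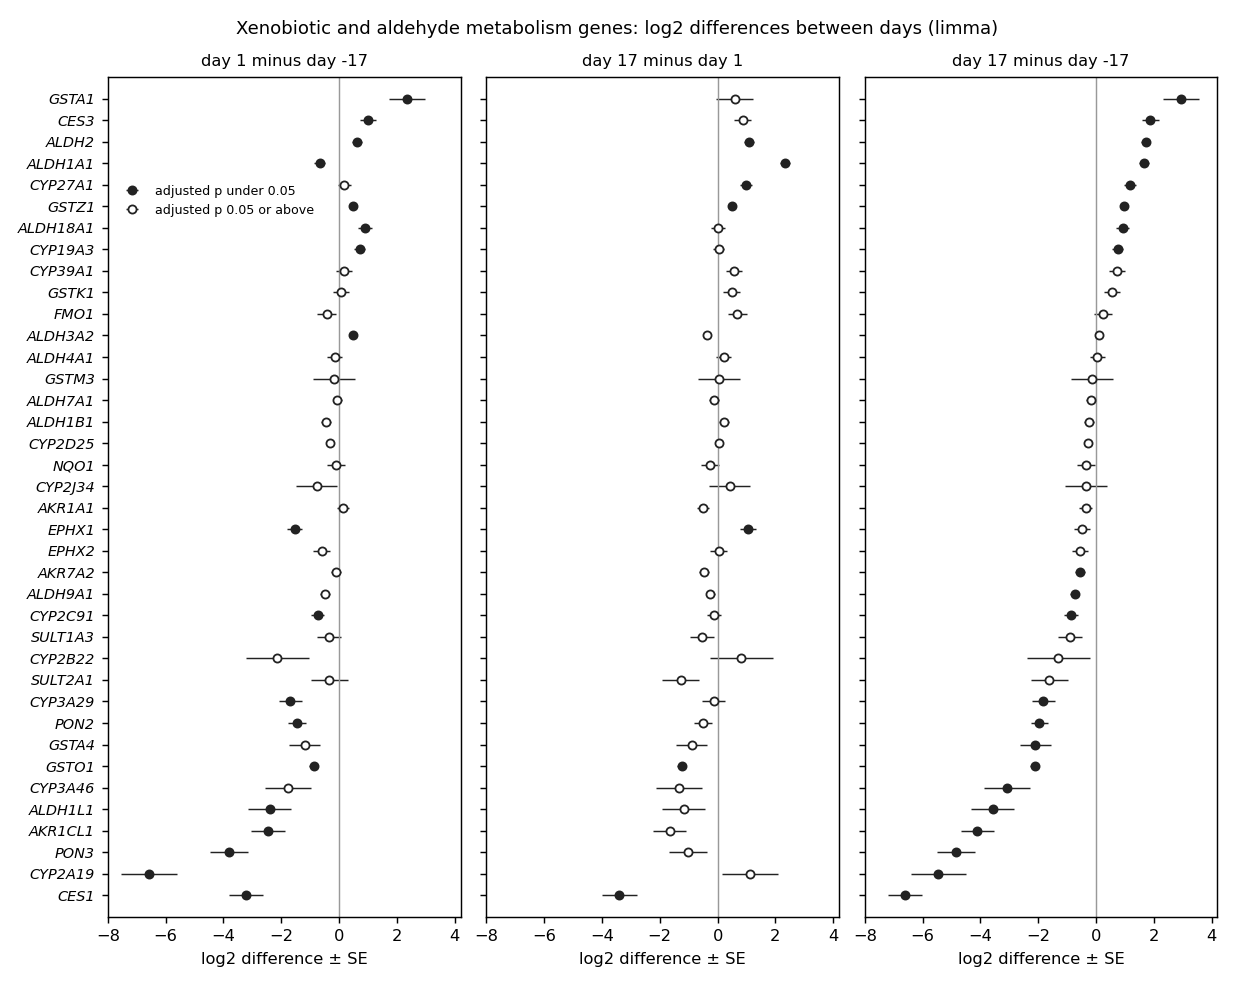
Log2 differences with standard errors (horizontal bars) for the 38 tested genes, sorted by day 17 minus day -17, in 3 panels for day 1 minus day -17, day 17 minus day 1 and day 17 minus day -17. Filled points have an adjusted p under 0.05 in limma. By fitted difference CES1, CYP2A19 and PON3, dim on day 17, lie farthest to the left in the right panel and GSTA1, dim on day -17, farthest to the right. With the arrays scaled to E. coli controls every point moves left, by 0.44, 0.89 and 1.33 in the 3 panels, and 4, 15 and 9 points change sign. Among filled points those are GSTZ1 in the middle panel and CYP27A1, GSTZ1, ALDH18A1 and CYP19A3 in the right panel.

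Directions depend on how arrays are scaled to each other. E. coli transcripts are added to the hybridization mix in fixed amounts, and scaling the arrays to their 14 probe sets shifted every log2 difference by -0.44, -0.89 and -1.33 in the order of the comparisons above, while median centring shifted them by 0.12, -0.04 and 0.08. Under E. coli scaling the members called were 1 higher and 21 lower on day 1 against day -17, 2 higher and 27 lower on day 17 against day 1, and 3 higher and 34 lower on day 17 against day -17. These are 50%, 65.9% and 84.1% of the 44 members, where 46.6%, 72.6% and 85.2% of all tested probe sets were called under that scaling. The called falls of members held under it, but its shift is downward for every probe set and could only enlarge a fall. The called rises of members are given below with their value under E. coli scaling where the call ended or the sign turned. Changes are otherwise relative to the deposited scaling.

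Of the cytochromes P450, 27 genes had a probe set and 10 were tested. The untested ones were CYP11A1, CYP17A1, CYP19A1, CYP1A1, CYP24A1, CYP26A1, CYP27B1, CYP2C32, CYP2C33, CYP2C36, CYP2C42, CYP2C49, CYP2E1, CYP3A22, CYP3A39, CYP7A1 and CYP8B1. CYP2A19, a liver enzyme that in the pig takes part in the breakdown of skatole, had signals of 1665, 217 and 1419 on day -17, 3.49, 21.9 and 7.65 on day 1 and 33.0, 26.5 and 6.88 on day 17. All pools of day 1 and day 17 were dim and lay below all pools of day -17, of which pool 2 was the lowest. The log2 difference was -6.58 ± 0.96 (adjusted p = 0.00142) for day 1 and -5.46 ± 0.96 (adjusted p = 0.00135) for day 17, both against day -17, or at least 9.32-fold and 8.63-fold lower against the filter level. Leaving out 1 pool moved the day 1 difference between -7.52 (without day -17 pool 2) and -5.95 (without day 1 pool 1) and the day 17 difference between -6.40 (without day -17 pool 2) and -4.76 (without day 17 pool 3).

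The CYP3A enzymes oxidise a wide range of drugs and steroids. CYP3A29 had signals of 106, 224 and 285 on day -17, 44.8, 70.9 and 63.1 on day 1 and 50.2, 59.6 and 51.1 on day 17, with no overlap between day -17 and the later days (-1.69 ± 0.40, adjusted p = 0.0135 on day 1, -1.82 ± 0.40, adjusted p = 0.0043 on day 17), or at least 2.21-fold and 2.04-fold lower. CYP3A46 had signals of 187, 128 and 1498 on day -17, 157, 124 and 47.8 on day 1 and 33.3, 36.3 and 48.7 on day 17. Its day -17 mean rested on pool 3, which stood far above the other pools, and every day 17 pool was dim, so day 17 was at least 3.56-fold lower with all pools (-3.08 ± 0.80, adjusted p = 0.0103). The fitted difference was -1.99 without day -17 pool 3. On day 1, CYP3A46 did not pass (-1.76 ± 0.80, adjusted p = 0.135). The paralogs of this family are similar in sequence, and the probe sets of CYP3A22 and CYP3A39 were too dim to be tested.

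CYP2C91, from another family of liver P450 enzymes, had signals of 499, 1003 and 661 on day -17, 447, 448 and 354 on day 1 and 355, 399 and 392 on day 17, and fell on day 1 (-0.74 ± 0.23, adjusted p = 0.0432) and on day 17 (-0.86 ± 0.23, adjusted p = 0.013) relative to day -17. Its day 1 call ended under 12 of 19 alternatives, more than any other gene's call in that comparison. CYP2B22, an enzyme of the family known for phenobarbital induction in liver, had 1157, 135 and 340.2 on day -17, 409, 14.5 and 106 on day 1 and 235, 81.0 and 181 on day 17, with pool 1 the highest and pool 2 the lowest on every day. It did not pass in any comparison, with -2.13 ± 1.09 (adjusted p = 0.178) for day 1 against day -17, but a fixed block on the pool number called it lower there (adjusted p = 0.0136).

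CYP27A1, the mitochondrial hydroxylase of the sterol side chain, was among the P450 genes that were higher in lactation. It had 1024, 1311 and 1397 on day -17, 987, 1864 and 1493 on day 1 and 2659.7, 2709 and 2985 on day 17, so day 17 lay above both other days without overlap. It rose on day 17 against day 1 (0.99 ± 0.22, adjusted p = 0.0165) and against day -17 (1.17 ± 0.22, adjusted p = 0.00175), but E. coli scaling gave 0.10 (adjusted p = 0.66) and turned the second difference to -0.15 (adjusted p = 0.494). Its day 1 level did not differ detectably from day -17 (0.18 ± 0.22, adjusted p = 0.566).

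CYP19A3 is one of the pig's aromatase paralogs, and aromatase turns androgens into oestrogens. The 1 of its 8 probe sets that passed the filter had 455, 375 and 425 on day -17, 556, 699 and 811 on day 1 and 623, 873 and 627 on day 17, so both lactation days lay above day -17 (0.71 ± 0.19, adjusted p = 0.0247 on day 1 and 0.74 ± 0.19, adjusted p = 0.00985 on day 17). E. coli scaling gave 0.27 (adjusted p = 0.282) for day 1 and turned day 17 to -0.58 (adjusted p = 0.0189). The other 7 probe sets of CYP19A3 and the 4 of CYP19A1 were too dim to be tested, so this rise rests on a single probe set of a family with near-identical copies.

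CYP39A1, an oxysterol hydroxylase, had 375, 567 and 438 on day -17, 464, 614 and 469.5 on day 1 and 473, 913 and 999 on day 17 and missed the threshold on day 17 against day -17 (0.74 ± 0.28, adjusted p = 0.0513), which it passed with the pool number as a block (adjusted p = 0.0138 fixed and 0.0313 random). CYP2D25, which hydroxylates vitamin D in pig liver, was measured by a pair of probe sets that disagreed. The brighter had 1619.6, 1752 and 1635 on day -17, 1341, 1342 and 1310.2 on day 1 and 1305, 1429 and 1362 on day 17 and did not pass (-0.29 ± 0.11, adjusted p = 0.0511 on day 17 against day -17), though a random block called it lower on day 1 and day 17 (adjusted p = 0.0382 and 0.0373). The other had 100.4, 103 and 31.5 on day -17, 221, 342 and 116 on day 1 and 897, 556 and 239 on day 17, with a log2 difference of 2.84 ± 0.59 (adjusted p = 0.00338), so no direction is given for CYP2D25. FMO5 was not tested. FMO1, the other flavin monooxygenase, had 3481, 2088 and 3139 on day -17, 2312, 2874 and 1389 on day 1 and 2276, 3492 and 4789 on day 17, with days that overlapped and no call.

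Of the aldehyde dehydrogenases, 11 genes had a probe set and 9 were tested, all but ALDH1L2 and ALDH5A1. ALDH1A1, which oxidises retinaldehyde to retinoic acid, had signals of 4433, 4758 and 6213 on day -17, 4169.8, 2800.3 and 2784 on day 1 and 16460.0, 14668 and 17338 on day 17. Day 1 lay below day -17 in every pool and day 17 lay above both other days in every pool. It fell on day 1 (-0.67 ± 0.18, adjusted p = 0.0244), rose on day 17 against day 1 (2.34 ± 0.18, adjusted p = 0.000285) and was higher on day 17 than on day -17 (1.67 ± 0.18, adjusted p = 8.5e-05). Its other probe set gave 2.49 and 1.94 for the comparisons of day 17 with day 1 and day -17, both called, and -0.55 for day 1 against day -17, which did not pass. Under E. coli scaling the rise against day 1 was still called (1.45, adjusted p = 0.000116), while that against day -17 was not (0.34, adjusted p = 0.103).

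ALDH2, the mitochondrial enzyme that clears acetaldehyde, had 1809, 1889.9 and 1571 on day -17, 2972, 2618 and 2536 on day 1 and 6568, 6528 and 4426 on day 17. The 3 days did not overlap. It rose on day 1 against day -17 (0.63 ± 0.17, adjusted p = 0.0223) and again on day 17 against day 1 (1.09 ± 0.17, adjusted p = 0.00423), which made day 17 about 3.28-fold brighter than day -17 (1.71 ± 0.17, adjusted p = 4.17e-05). With E. coli scaling these differences kept their sign but were not called (0.19, adjusted p = 0.408, then 0.20, adjusted p = 0.331, then 0.39, adjusted p = 0.0665).

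ALDH18A1, which makes the precursor of proline from glutamate, had 1698, 2153 and 2274 on day -17, 2527, 4204 and 5132 on day 1 and 3871, 3436 and 4236 on day 17, with every lactation pool above every day -17 pool. It rose on day 1 (0.90 ± 0.23, adjusted p = 0.0202; under E. coli scaling 0.47, adjusted p = 0.0922) and was higher on day 17 than on day -17 (0.92 ± 0.23, adjusted p = 0.00917; turned under E. coli scaling to -0.41, adjusted p = 0.0954). ALDH3A2, the fatty aldehyde dehydrogenase, averaged 3888 ± 416 (SD, n = 3) on day 1 and 2807 ± 190.0 on day -17, a rise of 0.47 ± 0.13 (adjusted p = 0.0242) that E. coli scaling removed (0.03, adjusted p = 0.869). Its other probe set gave -0.02 and the mean of both was not called (adjusted p = 0.314).

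ALDH1L1, which oxidises formyl tetrahydrofolate in the folate cycle, was lower on both later days. It had 388, 139 and 404 on day -17, 68.2, 51.7 and 41.8 on day 1 and 9.81, 15.0 and 87.3 on day 17, and every later reading was dim, that of day 17 pool 3 only just so. The difference from day -17 was -2.40 ± 0.75 (adjusted p = 0.0421) on day 1 and -3.58 ± 0.75 (adjusted p = 0.00356) on day 17, or at least 3.25-fold and 3.01-fold lower, and the day 17 value lay between -4.53 (without day 17 pool 3) and -2.95 (without day 17 pool 1) as single pools were left out. ALDH9A1, an enzyme of carnitine synthesis, had 4479, 2932 and 4236 on day -17, 2816, 2693 and 2646 on day 1 and 2299, 2493 and 2072 on day 17 and fell on day 17 against day -17 (-0.74 ± 0.16, adjusted p = 0.00422). On day 1 ALDH9A1 had -0.49 ± 0.16 (adjusted p = 0.0505), and passed with the pool number as a fixed (adjusted p = 0.0476) or random block (adjusted p = 0.0375). The other 3 tested genes, ALDH1B1, ALDH4A1 and ALDH7A1, did not pass in any comparison, with log2 differences between -0.46 and 0.22.

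**Figure D2:**
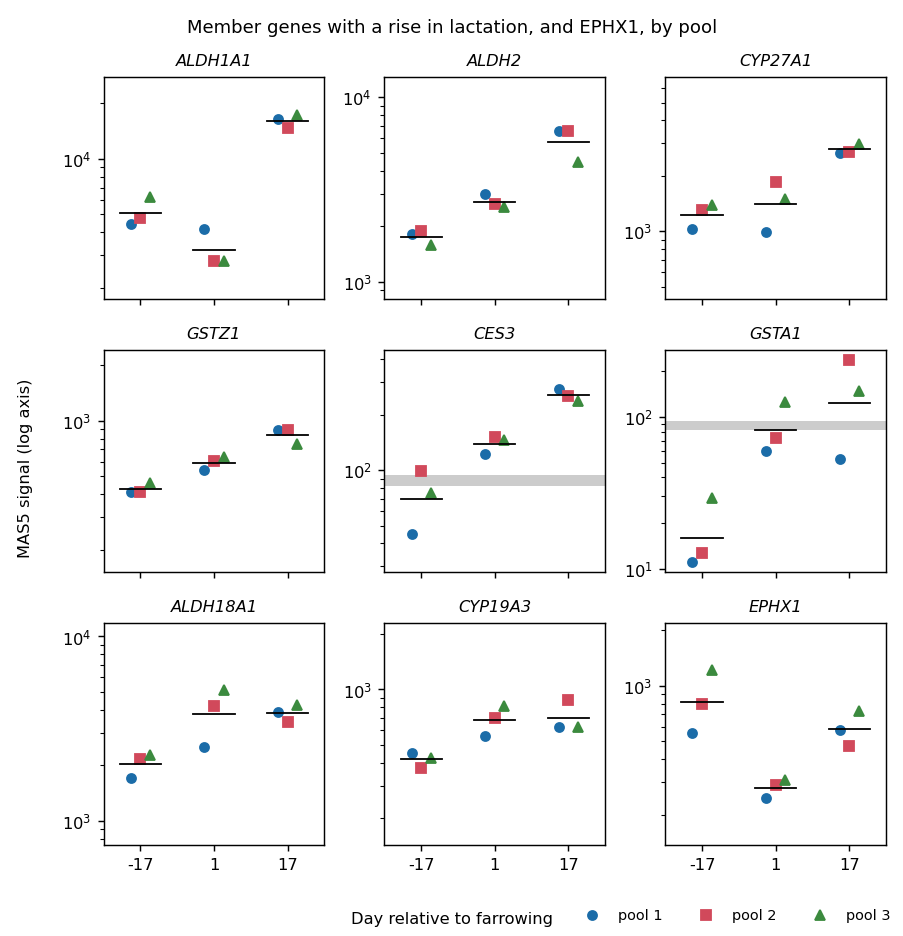
MAS5 signal of 9 genes on day -17, day 1 and day 17, on log axes. Points are the 3 pools of a day, short lines their geometric means, and the grey band the filter level of 82.1 to 94.2. ALDH1A1 and EPHX1 have their lowest pools on day 1, and CES3 and GSTA1 are dim in most day -17 pools. Among the called rises, E. coli scaling puts GSTZ1 below day 1, and CYP27A1, GSTZ1, ALDH18A1 and CYP19A3 below day -17, on day 17.

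Aldo-keto reductases were represented by 5 genes, of which 3 were tested and AKR1C1 and AKR1E2 were not. AKR1CL1, of a subfamily whose other members reduce steroid ketones, had 859, 356 and 836 on day -17, 235, 70.9 and 92.9 on day 1 and 34.9, 19.4 and 73.5 on day 17. Day -17 lay above the later days in every pool. It fell on day 1 (-2.46 ± 0.58, adjusted p = 0.0131) and was lower on day 17 than on day -17 (-4.11 ± 0.58, adjusted p = 0.000373, at least 6.85-fold). A dimmer tested probe set of AKR1CL1 had the same sign in both (-1.20 and -0.58) without passing. On day 17 against day 1 the brighter and the dimmer probe set differed in sign (-1.65 and 0.62), and neither passed. AKR7A2, a reductase of small aldehydes, averaged 349.6 ± 31.9 on day 17 and 518 ± 62.1 on day -17 (SD, n = 3 each; -0.56 ± 0.17, adjusted p = 0.0221). AKR1A1, the general aldehyde reductase, had 1996, 2649 and 3677 on day -17, 2415, 3188 and 3273 on day 1 and 2139, 1940.0 and 2196 on day 17 and did not pass (-0.49 ± 0.21, adjusted p = 0.143 for day 17 against day 1). NQO1 had 1481, 662 and 1296 on day -17, 1418, 734 and 993 on day 1 and 816, 933 and 804 on day 17 and overlapped between days, with no call.

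Of the esterases and hydrolases, all 6 genes were tested. CES1, a carboxylesterase that cleaves drug esters and stored lipid esters, had 1291, 363 and 1498 on day -17, 123, 58.9 and 122 on day 1 and 7.33, 6.09 and 17.1 on day 17. Each later day lay below the earlier one with no overlap. It fell on day 1 against day -17 (-3.21 ± 0.60, adjusted p = 0.00446) and on day 17 against day 1 (-3.39 ± 0.60, adjusted p = 0.00723), and day 17 was -6.60 ± 0.60 relative to day -17 (adjusted p = 2.99e-05). All day 17 pools were dim, so the fall is at least 9.59-fold from day -17 and at least 1.03-fold from day 1. Leaving out 1 pool moved the day 1 difference between -3.86 (without day -17 pool 2) and -2.83 (without day -17 pool 3) and the day 17 difference from day -17 between -7.25 (without day -17 pool 2) and -6.23 (without day -17 pool 3).

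CES3, another carboxylesterase, moved the other way. It had 45.3, 99.5 and 74.9 on day -17, 123, 151 and 146 on day 1 and 276, 254 and 236 on day 17, so day 17 lay above day 1 and day 1 above day -17. Pools 1 and 3 of day -17 were dim, so the size of a rise from that day is uncertain. The rise on day 1 was 1.00 ± 0.29 (adjusted p = 0.0335) and that of day 17 against day -17 1.87 ± 0.29 (adjusted p = 0.00071), while day 17 against day 1 did not pass (0.87 ± 0.29, adjusted p = 0.0747). E. coli scaling kept the signs but ended both calls (0.56, adjusted p = 0.126, then 0.55, adjusted p = 0.0949).

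Both paraoxonases fell. PON3, a lactonase carried on high-density lipoprotein, had 704, 189.9 and 658 on day -17, 42.6, 17.6 and 42.0 on day 1 and 33.0, 9.88 and 11.4 on day 17, and every pool of the later days was dim. Its difference from day -17 was -3.82 ± 0.67 (adjusted p = 0.00333) on day 1 and -4.84 ± 0.67 (adjusted p = 0.000337) on day 17, or at least 5.18-fold and 4.80-fold lower. Without 1 pool these lay between -4.43 (without day -17 pool 2) and -3.40 (without day 1 pool 2) and between -5.46 (without day -17 pool 2) and -4.51 (without day -17 pool 1). PON2, an intracellular lactonase, had 3779, 2171 and 2730.5 on day -17, 1614, 844 and 793 on day 1 and 645, 944 and 620.2 on day 17 and was well above the filter level on every array. It fell on day 1 (-1.46 ± 0.30, adjusted p = 0.00701), and day 17 was lower than day -17 (-1.96 ± 0.30, adjusted p = 0.000579) without a detectable difference from day 1 (-0.50 ± 0.30, adjusted p = 0.282).

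EPHX1, the microsomal epoxide hydrolase, dipped on day 1. It had 555, 797 and 1219.6 on day -17, 245, 291 and 309.5 on day 1 and 574, 469 and 726 on day 17, and the day 1 pools lay below all others. It fell on day 1 against day -17 (-1.54 ± 0.27, adjusted p = 0.00348) and rose on day 17 against day 1 (1.05 ± 0.27, adjusted p = 0.0309; under E. coli scaling 0.16, adjusted p = 0.57). Day 17 did not differ detectably from day -17 (-0.49 ± 0.27, adjusted p = 0.163). EPHX2, the soluble hydrolase of epoxy fatty acids, had 2354, 1516 and 1593 on day -17, 1467, 1474 and 754 on day 1 and 1430.0, 1329 and 927 on day 17 and did not pass, but a fixed block called it lower on day 1 and day 17 than on day -17 (adjusted p = 0.0377 and 0.0299).

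**Figure D3:**
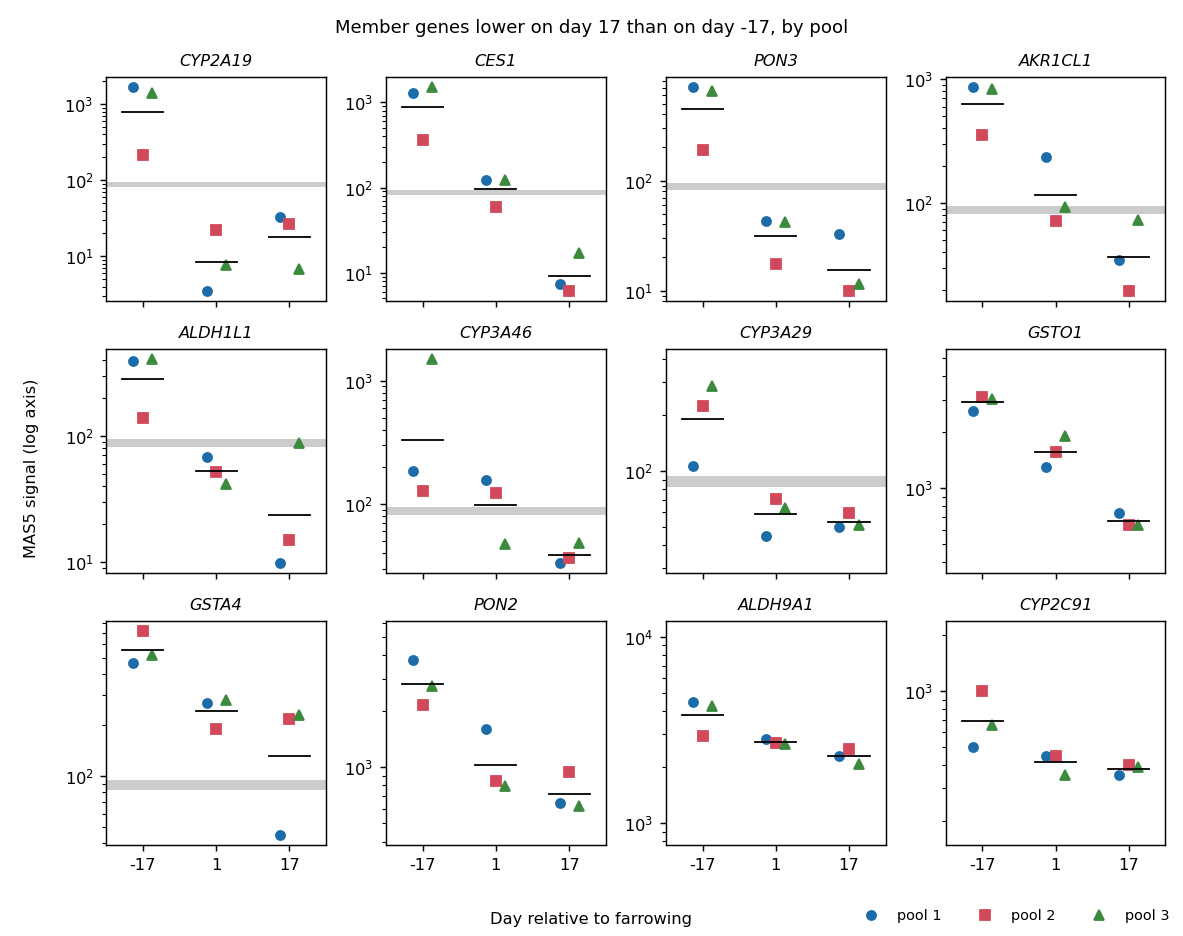
MAS5 signal of 12 of the 13 genes that were lower on day 17 than on day -17 (AKR7A2 is not drawn), on log axes. Points are the 3 pools of a day, short lines their geometric means, and the grey band the filter level. CYP2A19, PON3 and CYP3A29 lie under the band on both later days, and GSTO1 declines with little spread. Pool 2 is the lowest of day -17 for CYP2A19, CES1, PON3, AKR1CL1 and ALDH1L1.

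All 6 glutathione transferase genes were tested, and they diverged. GSTO1, the omega-class enzyme that also reduces dehydroascorbate, had 2604, 3098 and 3026 on day -17, 1296, 1577 and 1899.8 on day 1 and 738, 636 and 634 on day 17. The 3 days did not overlap and pools of a day differed by at most 1.47-fold. It fell on day 1 (-0.88 ± 0.16, adjusted p = 0.00382), fell again on day 17 against day 1 (-1.24 ± 0.16, adjusted p = 0.00204), and was lower on day 17 than on day -17 (-2.12 ± 0.16, adjusted p = 9.81e-06). GSTA4, which conjugates aldehydes from lipid peroxidation, had 466, 717 and 520.2 on day -17, 269, 190.4 and 282 on day 1 and 44.9, 216 and 229 on day 17. It was lower on day 17 than on day -17 (-2.10 ± 0.53, adjusted p = 0.00872), and the difference was -1.33 without day 17 pool 1, the lowest reading. A second probe set of GSTA4 was dim on all 9 arrays and was not tested. In limma without a filter it went the other way. It was called higher than day -17 on day 1 (2.80 ± 0.70, adjusted p = 0.0236) and on day 17 (2.09 ± 0.70, adjusted p = 0.041). No bound could be set for it, so the fall of GSTA4 rests on the brighter probe set.

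GSTZ1, an enzyme of tyrosine breakdown, had 409, 413 and 461 on day -17, 538, 602 and 634 on day 1 and 893, 890.1 and 751 on day 17, and the 3 days did not overlap. It rose on day 1 (0.47 ± 0.14, adjusted p = 0.0374) and on day 17 against day 1 (0.51 ± 0.14, adjusted p = 0.0389), and was higher on day 17 than on day -17 (0.98 ± 0.14, adjusted p = 0.000443). E. coli scaling gave 0.03 (adjusted p = 0.875) for the first and turned the others to -0.38 (adjusted p = 0.0355) and -0.35 (adjusted p = 0.0419). The calls of GSTZ1 on day 1 and on day 17 against day 1 ended under 10 and 13 of 20 alternatives. A dimmer tested probe set of GSTZ1 overlapped between days and was not called in any comparison. It gave -0.02, 0.51 and 0.49 in the order of the comparisons (adjusted p = 0.979, 0.365 and 0.277). GSTA1, an alpha-class enzyme abundant in liver, had 11.1, 12.7 and 29.4 on day -17, 59.5, 73.3 and 125 on day 1 and 52.5, 237 and 149 on day 17, and every day -17 pool was dim. The difference from day -17 was 2.35 ± 0.64 (adjusted p = 0.0246) on day 1, where only 1 pool exceeded the filter level and no bound could be set, and 2.94 ± 0.64 (adjusted p = 0.00412) on day 17, or at least 1.38-fold. The day 17 value lay between 2.46 (without day 17 pool 2) and 3.55 (without day 17 pool 1) without 1 pool. E. coli scaling kept both calls of GSTA1 (1.91 on day 1 and 1.61 on day 17). They rest on the dim day -17 readings, and the day 17 bound is smaller than the shift of that scaling. GSTK1, of mitochondria and peroxisomes, had 727, 424 and 281 on day -17, 489, 448 and 448 on day 1 and 723, 619 and 604 on day 17 and did not pass.

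Sulfotransferases were represented by 3 genes, of which 2 were tested and neither passed without a block. SULT1A3, a phenol sulfotransferase, had 1049, 364 and 613 on day -17, 841, 343 and 388 on day 1 and 279.9, 419.6 and 304 on day 17, with -0.90 ± 0.41 (adjusted p = 0.0931) for day 17 against day -17. SULT2A1, which sulfates hydroxysteroids, had 217, 98.1 and 169 on day -17, 107, 72.2 and 228 on day 1 and 18.3, 103 and 65.4 on day 17, with -1.62 ± 0.64 (adjusted p = 0.0597), and a random block called SULT2A1 lower (adjusted p = 0.0478). SULT1E1, the oestrogen sulfotransferase, was dim on all 3 days.

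The falls that withstood leaving out any single pool in the comparison of day 1 with day -17 were those of CES1, CYP2A19, EPHX1, GSTO1, PON2 and PON3. They also held with quantile normalization, median centring, the pseudocount, no filter, no intensity trend, the 6 arrays alone and both blocks. E. coli scaling lowers every difference, so it could not turn a fall. GSTO1 fell by less than 2-fold on day 1 against day -17, and CYP2A19 and PON3 were not among the probe sets of the stricter filter. The filter was set on all 9 arrays and was not redone as pools were left out. CYP2A19 and PON3 reached its level only in the 3 day -17 pools, so without any of these they would not have passed it. The other 12 of the 18 genes called on day 1 against day -17 lost their call in at least 1 alternative. Without day -17 pool 3, the calls of AKR1CL1 (adjusted p = 0.0538), ALDH1A1 (0.0877), ALDH1L1 (0.136), ALDH2 (0.0796), CES3 (0.0685), CYP19A3 (0.0626), CYP2C91 (0.0897), CYP3A29 (0.0673) and GSTZ1 (0.0615) ended. Without day 1 pool 3, the calls of AKR1CL1 (adjusted p = 0.053), ALDH18A1 (0.0735), ALDH1A1 (0.0894), ALDH1L1 (0.123), CES3 (0.096), CYP19A3 (0.0921), CYP2C91 (0.142), GSTA1 (0.0972) and GSTZ1 (0.114) ended. Without day -17 pool 1, the calls of ALDH18A1 (adjusted p = 0.0617), ALDH1L1 (0.119), ALDH3A2 (0.0616), CES3 (0.084), GSTA1 (0.064) and GSTZ1 (0.0919) ended. Without day 1 pool 2, the calls of ALDH18A1 (adjusted p = 0.0617), ALDH1A1 (0.0768), ALDH1L1 (0.0907), ALDH3A2 (0.0808), CES3 (0.0896), CYP19A3 (0.0647), CYP2C91 (0.0723), GSTA1 (0.0536) and GSTZ1 (0.0925) ended. Without day -17 pool 2, the calls of ALDH3A2 (adjusted p = 0.0755), CYP19A3 (0.0776), CYP2C91 (0.127), CYP3A29 (0.0549), GSTA1 (0.0655) and GSTZ1 (0.0979) ended. Without day 17 pool 1, the call of CYP2C91 (adjusted p = 0.058) ended. Without day 17 pool 2, the calls of CYP2C91 (adjusted p = 0.0609) and GSTZ1 (0.0524) ended. Without day 17 pool 3, the call of CYP2C91 (adjusted p = 0.061) ended. The count of called members was 9 without day -17 pool 3, without day 1 pool 2 or without day 1 pool 3.

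In the comparison of day 17 with day 1, the calls of ALDH1A1, ALDH2, CES1 and GSTO1 held whichever pool was left out. Without day 17 pool 3, the calls of CYP27A1 (adjusted p = 0.0601), EPHX1 (0.107) and GSTZ1 (0.0537) ended. Without day 1 pool 1, the calls of EPHX1 (adjusted p = 0.0679) and GSTZ1 (0.0899) ended. Without day 1 pool 2, the calls of EPHX1 (adjusted p = 0.0644) and GSTZ1 (0.0785) ended. Without day 1 pool 3, the calls of EPHX1 (adjusted p = 0.0604) and GSTZ1 (0.0594) ended. Without day 17 pool 1, the calls of EPHX1 (adjusted p = 0.0804) and GSTZ1 (0.113) ended. Without day -17 pool 2, the call of GSTZ1 (adjusted p = 0.0532) ended. Without day -17 pool 3, the call of GSTZ1 (adjusted p = 0.0546) ended. Without day 17 pool 2, the call of GSTZ1 (adjusted p = 0.116) ended. The count of called members was 5 without day 17 pool 3. In the comparison of day 17 with day -17, 20 of 21 genes kept their call whichever pool was left out. The exception was AKR7A2, with an adjusted p of 0.0811 and 0.0508 when pool 2 or pool 3 of day -17 was dropped, of 0.075 when pool 1 of day 17 was dropped, and of 0.0806 in quantile-normalized data. Here too the filter was not redone. ALDH1L1, CYP2A19, CYP3A29 and PON3 reached its level only in the 3 day -17 pools, and GSTA1 only in 1 pool of day 1 and 2 of day 17. Without any of those pools they would not have passed it.

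Markers of adipocytes moved in both directions beside these changes. For the marker counts here and below, the shares of all tested probe sets called higher were 12%, 7.02% and 21.7% in the order of the comparisons. Those called lower were 12.1%, 6.61% and 24.8%. Of 9 tested adipocyte markers, 1 rose and 2 fell on day 1 against day -17, 1 rose and 0 fell on day 17 against day 1, and 2 rose and 4 fell on day 17 against day -17, with medians of -0.90, -1.13 and -2.03. Their summed signal was 7971 to 20691 on day -17, 15799 to 22779 on day 1 and 21040.4 to 24147 on day 17, most of it from FABP4, and no marker was at 0. CIDEA (4.08 on the log2 scale) and FABP4 (0.66) were the markers that rose on day 17 against day -17. Under E. coli scaling CIDEA stayed higher (2.76, adjusted p = 0.000232) and FABP4 turned to -0.67 (adjusted p = 0.0295). The markers that fell were ADIPOQ, LIPE, RBP4 and GPD1. ADIPOQ, which encodes adiponectin, had 547, 73.9 and 319 on day -17, 195, 33.5 and 4.58 on day 1 and 23.2, 8.87 and 7.22 on day 17, and LIPE, hormone-sensitive lipase, had 1425, 257 and 876 on day -17, 471, 4.35 and 110.3 on day 1 and 16.8, 12.0 and 11.2 on day 17. GPD1, which makes glycerol phosphate for triglycerides, had 846, 204 and 651 on day -17, 287, 67.4 and 102 on day 1 and 34.7, 56.6 and 29.1 on day 17. All 3 had their lowest day -17 reading in pool 2 and were dim in all day 17 pools, at least 2.53-fold, 7.38-fold and 5.21-fold lower than on day -17.

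The same pool stood low in part of the members. It was picked after the values were seen, so the counts here are a description. ALDH1L1, CYP2A19 and PON3, among the genes counted, passed the filter only through day -17. Of the 13 genes lower on day 17 than on day -17, pool 2 was the lowest of day -17 in 8 (AKR1CL1, ALDH1L1, ALDH9A1, CES1, CYP2A19, CYP3A46, PON2 and PON3), where it was the lowest in 28% of all tested probe sets with that fall. It was also the lowest in 9 of 9 adipocyte markers, in 7 of 7 milk protein genes, in 5 of 6 fibroblast markers and in 4 of 5 endothelial markers, in 2 of 4 hepatocyte and 1 of 2 macrophage markers, and in 0 of 6 luminal epithelial, 0 of 4 myoepithelial and 0 of 4 T and NK cell markers. The other 5 genes (AKR7A2, CYP2C91, CYP3A29, GSTA4 and GSTO1) had their lowest day -17 reading in pool 1. Fibroblast markers fell too: 5 of 6 were lower on day 17 than on day -17 and 0 were higher, with a summed signal of 16702 to 18556 on day 17, against 37871 to 52589.8 on day -17. Of 6 luminal epithelial markers 2 rose and 2 fell on day 17 against day -17. KRT8 (-1.48 ± 0.48, adjusted p = 0.0281) and KRT19 (-1.19 ± 0.42, adjusted p = 0.0421), keratins of luminal cells, were the markers that fell, and EPCAM and CLDN3 those that rose, and E. coli scaling ended the call of EPCAM (0.33, adjusted p = 0.0855). The part of these cell types in the falls was not tested.

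Since many of these enzymes are liver genes, liver markers were also read. Of 9 hepatocyte markers 5 (ALB, APOA2, TTR, FGB and APOH) were too dim to be tested, and none was at 0. Of the 4 tested, 2 fell and 0 rose on day 1 against day -17, and 2 fell and 0 rose on day 17 against day -17. Those that fell were APOA1 (-0.52, then -0.74 on the log2 scale) and SERPINA1 (-1.16, then -0.80). The summed signal of the 9 markers was 3519 to 5038 on day -17, 2128 to 3167 on day 1 and 2245 to 2559.6 on day 17, mostly from APOA1.

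**Figure D4:**
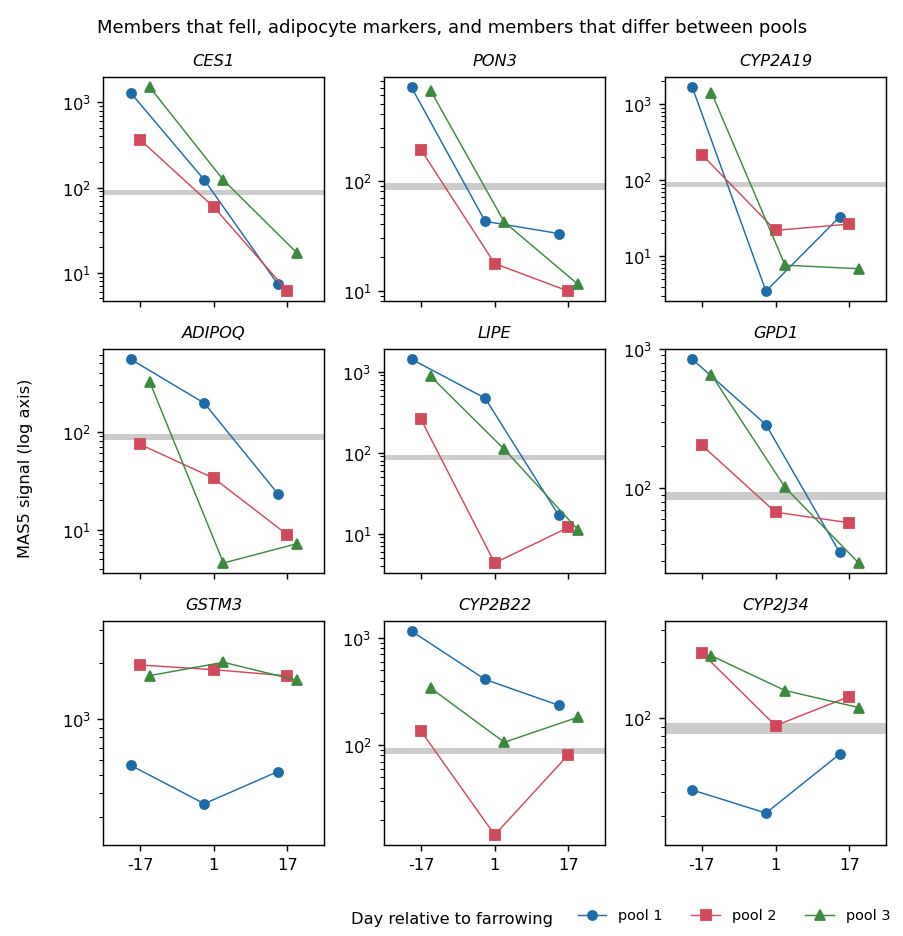
MAS5 signal on day -17, day 1 and day 17 in each pool, on log axes, with lines joining pools of the same number and the grey band at the filter level. The top row shows 3 members that fell. The middle row shows 3 adipocyte markers that fell on day 17 against day -17. FABP4 and CIDEA, adipocyte markers that rose in that comparison, are not drawn. The bottom row shows 3 members that differed between pools. The labels do not tie a pool number to the same sows across days. GSTM3 is lowest in pool 1 and CYP2B22 in pool 2 on all 3 days.

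Some members differed more between pools than between days. GSTM3, a mu-class glutathione transferase, had 565, 1954 and 1714 on day -17, 351, 1844 and 2020.3 on day 1 and 523, 1708 and 1618 on day 17. Pool 1 lay at least 2-fold below both other pools on each day, and the pools with the other numbers stayed within a narrow range. Among all tested probe sets, 7 of 15519 (0.0451%) had pool 1 at least 2-fold below both others on every day, and GSTM3 was the 1 member gene with this pattern, chosen after its values were seen. The log2 differences of GSTM3 between days were -0.18 ± 0.72, 0.05 ± 0.72 and -0.13 ± 0.72 in the order of the comparisons, none of them called. CYP2J34, an epoxygenase of fatty acids, had 41.2, 225 and 217 on day -17, 31.0, 91.4 and 141 on day 1 and 64.2, 131 and 114 on day 17, with pool 1 again the lowest on each day. Over the 38 genes the highest pool of day -17 exceeded the lowest by a median of 1.79-fold, where the median over all tested probe sets was 1.35-fold. These medians were 1.61-fold and 1.41-fold on day 1, and 1.43-fold and 1.33-fold on day 17.

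Other genes of the same pathways were read from lists of regulators, cofactor suppliers, further oxidoreductases and conjugating enzymes, efflux carriers and retinoid carriers. As a background for these lists, 12%, 7.02% and 21.7% of all tested probe sets were called higher and 12.1%, 6.61% and 24.8% lower, in the order of the comparisons. The calls among cofactor suppliers were all upward under the deposited scaling. Of 13 tested genes, 4 rose and 0 fell on day 1 against day -17, and 2 rose and 0 fell on day 17 against day 1. On day 17 against day -17, 6 rose and 0 fell. The medians were 0.30, 0.13 and 0.48, each smaller than the downward shift of E. coli scaling. Of the 6, that scaling called CYB5A (-0.97, adjusted p = 3.03e-05) and FDX1 (-0.73, adjusted p = 0.00378) lower. It ended the calls of PAPSS1 and GCLM and kept those of UGP2 and GGT1. The kept call of GGT1 (1.68, adjusted p = 0.00227) rests on dim day -17 readings, and its bound, given below, is smaller than the shift of E. coli scaling. UGP2, which makes UDP-glucose, the precursor of both glucuronide donors and lactose, rose by 1.88 ± 0.17 on day 1, and its day 17 level was 2.85 ± 0.17 above day -17. GGT1, which recycles glutathione, was dim on day -17 and day 1 and at least 2-fold higher on day 17 than on day -17. GSR, glutathione reductase, rose on day 17 against day 1 (0.82 ± 0.22, adjusted p = 0.0351; under E. coli scaling -0.06, adjusted p = 0.784).

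Among 13 further tested oxidoreductases and conjugating enzymes, 2 rose and 4 fell on day 1 against day -17, 1 rose and 1 fell on day 17 against day 1, and 3 rose and 4 fell on day 17 against day -17. Both monoamine oxidases fell, with log2 differences of -4.33 ± 0.62 (adjusted p = 0.000417) for MAOB and -1.90 ± 0.28 (adjusted p = 0.000518) for MAOA on day 17 against day -17, where MAOB was dim on day 17 and at least 9.33-fold lower. MGST1, a microsomal glutathione transferase outside the GST prefix, had 11649, 10398 and 12679.9 on day -17, 17046, 24156 and 26350.4 on day 1 and 38002, 38595 and 38353 on day 17 and rose on day 1 (0.94 ± 0.15, adjusted p = 0.00243) and again on day 17 (0.79 ± 0.15, adjusted p = 0.0105; under E. coli scaling -0.10, adjusted p = 0.543). DHRS4, a reductase of retinaldehyde and other carbonyls, rose on day 1 (0.99 ± 0.17, adjusted p = 0.00337).

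Of the 9 regulators with a probe set, 5 were too dim to be tested, among them the xenobiotic receptor NR1I2 and ARNT, the partner of the aryl hydrocarbon receptor AHR. Of the 4 tested, CEBPB fell on day 1 (-0.62 ± 0.14, adjusted p = 0.0126) and was lower on day 17 than on day -17 (-0.74 ± 0.14, adjusted p = 0.00227), and AHR, PPARG and CEBPA did not pass. Of 4 tested efflux and organic ion carriers, SLC22A3 was higher (1.34 ± 0.40, adjusted p = 0.0205; under E. coli scaling 0.01, adjusted p = 0.979) and ABCC6 lower (-0.83 ± 0.31, adjusted p = 0.0485) on day 17 than on day -17, and ABCG2, which carries drugs and riboflavin into milk, did not pass in any comparison (0.81 ± 0.36, adjusted p = 0.127 on day 1). Both tested retinoid carriers fell on day 1 against day -17, with log2 differences of -3.55 ± 0.88 (adjusted p = 0.0172) for RBP4 and -2.10 ± 0.60 (adjusted p = 0.0305) for CRABP2. RBP4 is also in the adipocyte list. ALDH1A1, the retinoic acid enzyme described above, was higher on day 17 than on day -17, while RBP4 (dim on day 17, at least 6.39-fold; -6.33 ± 0.88, adjusted p = 0.000364) and CRABP2 (-2.65 ± 0.60, adjusted p = 0.0052) were lower.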

How the data were processed

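Mammary RNA pools (2 sows each, 3 pools on each of 3 days) were measured on 9 arrays. The deposited values are intensities: linear MAS5 signals per probe set, per the submitters' processing notes, with no version given. The 2% trimmed mean of each array lay between 500.088 and 500.112. Gene symbols came from the platform annotation, which gives 10099 probe sets 1 symbol, 198 several (8 of them naming a member gene, not used) and 13826 none here. Of 62 member genes 61 matched the RefSeq table (Sscrofa11.1) by gene ID.

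From these, log2 signals without a pseudocount were fitted with limma 3.58.1 in R 4.3.3 (lmFit, eBayes with an intensity trend, day as the only term, all 9 arrays). The 124 control probe sets were left out. Tested probe sets were those that on 3 or more arrays reached that array's 40th percentile. P-values were adjusted by Benjamini-Hochberg over 15519 probe sets, at 0.05. Each gene is given by its brightest tested probe set (mean log2 signal). An exact test of 3 against 3 cannot give a p under 0.1, so none was used. The code was tested on simulated data. Members, lists and rules were chosen with earlier results of these data known. Values of all pools are given for called genes with an absolute log2 difference of at least 1 and no overlap, for the brightest tested gene of each family and for some others chosen after their values were seen.

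Pool numbers repeat across days. Deviations from day means correlated at 0.235 to 0.506 between same-numbered pools for day 1 and day -17 (others -0.387 to 0.113), at 0.105 to 0.130 for day 17 and day -17 (others -0.0739 to -0.0421) and at 0.0960 to 0.107 for day 17 and day 1. Same-numbered pairs were over 0.1 throughout for both comparisons with day -17, but not for day 17 and day 1. The main fit had no block, so its standard errors and p-values are unpaired in all 3 comparisons. Alternative fits had the pool number as a block in all 3 comparisons.

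Alternatives were quantile normalization, median centring, E. coli control scaling, a pseudocount of 16, no filter, a filter at the 60th percentile, no intensity trend, the 6 compared arrays alone, a block on the pool number (fixed, then random), dropping each array, a minimum fold of 2 and the mean over a gene's probe sets.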

Additional observations from a re-analysis of the deposited data

How the results depend on the processing

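The counts of called members (18 on day 1 relative to day -17, 8 on day 17 relative to day 1 and 23 on day 17 relative to day -17) stayed within 1.5 times of these with quantile normalization or median centring, with a pseudocount of 16, without a filter or with a stricter one, without an intensity trend, and in the 6 compared arrays alone. With the replicate block they were 22, 10 and 25 (fixed) or 21, 9 and 26 (random), where 29%, 17.7% and 50.4% or 28.8%, 18% and 50.3% of all tested probe sets were called. The block ended no gene's call. Beside the calls it added above, the brighter probe set of AKR1CL1 passed as lower on day 17 against day 1 (adjusted p = 0.0228 fixed, 0.0493 random). The dimmer tested probe set of AKR1CL1 had the opposite sign there (0.62 in the main fit). The block changed no other call of a gene's brightest tested probe set. The counts are of probe sets, so they also hold calls added in dimmer probe sets, which are not named. With each pool left out in turn the counts ranged over 9 to 20, 5 to 9 and 22 to 26. E. coli control scaling gave 29 for day 17 against day 1 and 37 for day 17 against day -17, with the calls over all tested probe sets at 11271 (72.6%) and 13227 (85.2%), against 2116 and 7223 under the deposited scaling. Requiring a 2-fold change left 9 for day 1 against day -17. Under E. coli scaling the log2 difference turned to -0.38 for GSTZ1 on day 17 against day 1, and on day 17 against day -17 to -0.41 for ALDH18A1, -0.58 for CYP19A3, -0.15 for CYP27A1 and -0.35 for GSTZ1. These turns follow from the shifts of -0.89 and -1.33 that this scaling gives every probe set. Apart from pools left out and E. coli scaling, calls for day 1 against day -17 were lost by ALDH1L1, ALDH3A2 and CYP2C91 after quantile normalization and without an intensity trend, by ALDH1A1, ALDH1L1 and CYP2C91 after median centring, by ALDH1L1, CES3, CYP2C91 and GSTZ1 with no filter, and by ALDH18A1, ALDH1A1, CES3, CYP2C91 and GSTZ1 with 6 arrays alone. GSTZ1 and ALDH3A2 also lost theirs in the mean over their probe sets (adjusted p = 0.473 and 0.314), as did ALDH1A1 (0.054). For day 17 against day 1, GSTZ1 lost its call without a filter, after median centring, with 6 arrays alone, without an intensity trend and in the mean over probe sets (adjusted p = 0.138), and EPHX1 without an intensity trend. No detection calls were used, so signals under the filter level carry little information on size.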

Other observations

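Of the 47 member probe sets that failed the filter, 6 were called for day 1 against day -17, 1 for day 17 against day 1 and 7 for day 17 against day -17 when no filter was used, or 12.8%, 2.13% and 14.9%. Over all 8480 probe sets that failed the filter these shares were 1.99%, 1.4% and 11.1%. No bound could be set for CYP2C36, CYP3A39, GSTA4 and CYP7A1 on day 1 against day -17. The same held for CYP2C36 on day 17 against day 1. It also held for CYP19A1, CYP2E1, CYP3A39, CYP2C49 and GSTA4 on day 17 against day -17. Except for CYP3A39 on day 17, every pool compared there was dim, so the shares of members rest largely on dim readings. Of the called genes, CYP2C33 and CYP26A1 are described here, chosen after their values were seen. CYP2C33, a P450 of the family that oxidises many drugs, had 72.8, 941 and 482 on day -17, 29.6, 16.8 and 25.2 on day 1 and 59.5, 57.7 and 25.2 on day 17, so pools 2 and 3 of day -17 stood above all other readings, and the difference was -3.79 ± 0.79, adjusted p = 0.0102 for day 1 and -2.86 ± 0.79, adjusted p = 0.0182 for day 17, both against day -17, or at least 3.74-fold and 3.46-fold lower with the dim later days set to the filter level. In CYP2C33 pool 1 was the lowest of day -17, unlike in CYP2A19, PON3 and CES1, where pool 2 was. CYP26A1, which breaks down retinoic acid, had 17.3, 23.8 and 2.41 on day -17, 40.8, 68.6 and 36.5 on day 1 and 96.8, 142 and 77.0 on day 17, and its difference of day 17 against day -17 was 3.35 ± 0.77, adjusted p = 0.00756 in limma without a filter, or at least 1.14-fold. Its day 17 pools lay above all others, with 2 of the 3 at the filter level or higher.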
